A study of Mus musculus with 24 samples.

Results

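This account covers complex I (NADH:ubiquinone oxidoreductase) of the mitochondrial respiratory chain in the oligodendrocyte (OL) translatome and in total spinal cord RNA after contusive spinal cord injury (SCI). Its members are the protein-coding genes whose symbol starts with Nduf followed by a, b, c, s, v, ab or af and a number, which gave 46 of the 21965 genes in the count table. They comprise 36 subunits (7 core and 29 accessory ones) and 8 assembly factors named Ndufaf. Ndufa4, which is now known as a subunit of complex IV, and its paralog Ndufa4l2 carry the name as well and are counted apart. All 46 passed the filter on low counts.

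Complex I is the entry point for electrons from NADH into the respiratory chain and couples their transfer to ubiquinone with proton pumping across the inner mitochondrial membrane. The N module of its matrix arm oxidises NADH with a flavin and passes electrons along iron-sulfur clusters to the Q module, where ubiquinone is reduced. The membrane arm, divided here into a proximal and a distal part, pumps protons. Core subunits carry out catalysis, and those of the membrane arm are encoded on mitochondrial DNA and are not analysed here. Accessory subunits surround the core and are needed for assembly and stability. Assembly factors join modules and modify subunits but leave before the complex is finished. Mature OLs are often described as relying more on glycolysis than young, myelinating ones.

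All mice carried the plp-cre;rpl22HA genotype, in which a tamoxifen-inducible Cre switches on an HA-tagged Rpl22, a ribosomal protein, and all of them, controls included, had received tamoxifen. The 4 groups were naive mice without SCI and mice at 2, 10 and 42 days post-injury (dpi) after contusion at T9 with a force of 50 kdyn, females of 10 to 12 weeks by the labels. The study's methods give another age at injury. In each group n = 3 pools, made from the tissue of 2 mice, were sequenced as total RNA and as RNA bound to HA-tagged ribosomes (OL), which makes 24 libraries. This Cre is also active in Schwann cells, so the tag does not mark OLs alone. The naive group was collected with dpi 42 only, so age and collection cannot be told apart from injury at the earlier times. For 2 dpi 42 libraries (OL replicate 1 and total RNA replicate 2) the sample title conflicts with the sample description and with the column name, and the latter pair was followed here.

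The libraries held 25840127 to 32987841 counts. Of 8 OL markers 8 were higher in naive OL than in naive total RNA (median log2 fold change 2.70), and 6 of 6 neuron markers (-4.26) and 8 of 8 myeloid markers (-3.52) were lower. In OL the summed level of the myeloid markers was 15 to 19.5 CPM (read counts scaled to library size) in naive mice, 63.8 to 81.6 on dpi 2, 128 to 156 on dpi 10 and 109 to 175 on dpi 42, and 7 of 8 of them rose at each time. The sum of 3 Schwann cell markers (Prx, Ncmap and Egr2) in OL was 1.6, 1.44 and 95.9 CPM in naive mice, 30.5 to 99.2 on dpi 2, 79.98 to 135 on dpi 10 and 119 to 149 on dpi 42. Naive pool 3 stood apart by those markers, with Egr2, a transcription factor of myelinating Schwann cells, at 0 in the other 2 naive OL libraries. Of 5 astrocyte markers 4 were lower in naive OL than in naive total RNA (median -0.66), and none was called. Their sum set 5 OL libraries apart, at 8153 CPM in naive replicate 3, 7598 in dpi 2 replicate 3, 6163 in dpi 10 replicate 2 and 12052 and 10068 in dpi 42 replicates 1 and 2, against 917 to 2521 in the other 7 OL libraries and 4608 to 7750 in total RNA. Both libraries of dpi 2 pool 2 held counts on Y-linked genes (2604 in total RNA and 2414 in OL), against 0 to 13 in the other 22. Counts of called members are also given without these pools and, as a further alternative added after seeing the data, without the 5 OL libraries rich in astrocyte markers, which leaves 1 dpi 42 OL library that is assumed to vary like the other groups. The part of myeloid and Schwann cells in the results on complex I was not tested.

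In OL the complex I subunits were higher on dpi 2, close to naive on dpi 10 and higher again on dpi 42, while in total RNA their median change was below 0 at each time, most so on dpi 10. The mean over the 36 subunits of log2 CPM was 5.68, 5.71 and 5.84 in the 3 naive OL libraries, 6.23, 6.30 and 6.43 on dpi 2, 5.81, 5.85 and 5.83 on dpi 10 and reached 6.4, 6.34 and 6.04 by dpi 42. All OL libraries of dpi 2 and dpi 42 thus lay above all naive ones, and those of dpi 10 overlapped with them. In every group the OL libraries rich in astrocyte markers were those with the highest subunit mean, dpi 42 replicates 1 and 2 included. In total RNA the same mean was 6.36, 6.39 and 6.36 in naive mice, 6.08, 6.16 and 6.17 on dpi 2, 5.91, 5.81 and 5.99 on dpi 10 and then 6.11, 6.4 and 6.02 by dpi 42, so that all libraries of dpi 2 and dpi 10 lay below the naive ones and 1 of dpi 42 lay above them. The plot of list means by library shows both courses beside those of the assembly factors. As these are bulk samples, fewer cells of a type and less RNA per cell cannot be told apart.

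**Figure D1:**
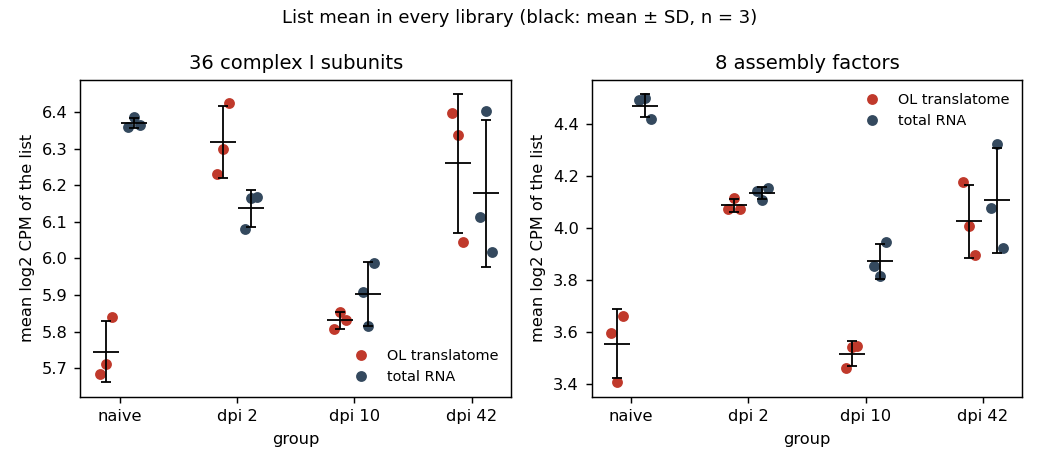
Mean log2 CPM of the 36 subunits (left) and the 8 assembly factors (right) in each library (points; red, OL; blue, total RNA) by group, with the mean and SD of n = 3 in black. The OL points of dpi 2 and dpi 42 lie above those of naive mice in both panels, and naive total RNA has the highest mean of the total RNA groups.

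On dpi 2, 21 of 36 subunits (58.3%) rose in OL by more than 0.5 on the log2 scale with q under 0.05, as compared to 15.9% of all 17167 genes tested (edgeR quasi-likelihood test with Benjamini-Hochberg adjustment, which holds for all q given here). Their median log2 fold change was 0.73 against 0.00 over all genes, 33 were above 0, and 3 exceeded 1. In 26 subunits the 3 libraries of dpi 2 all lay above the 3 naive ones, as they did in 18.3% of all genes. The rise was found mostly in accessory subunits, 21 of 29 of which passed, and its share differed by module. It included 8 of 9 genes of the proximal membrane arm, 6 of 10 of the distal arm, 5 of 10 of the N module, 1 of 6 of the Q module and the acyl carrier Ndufab1. Which genes those were is shown in the heat map of changes.

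**Figure D2:**
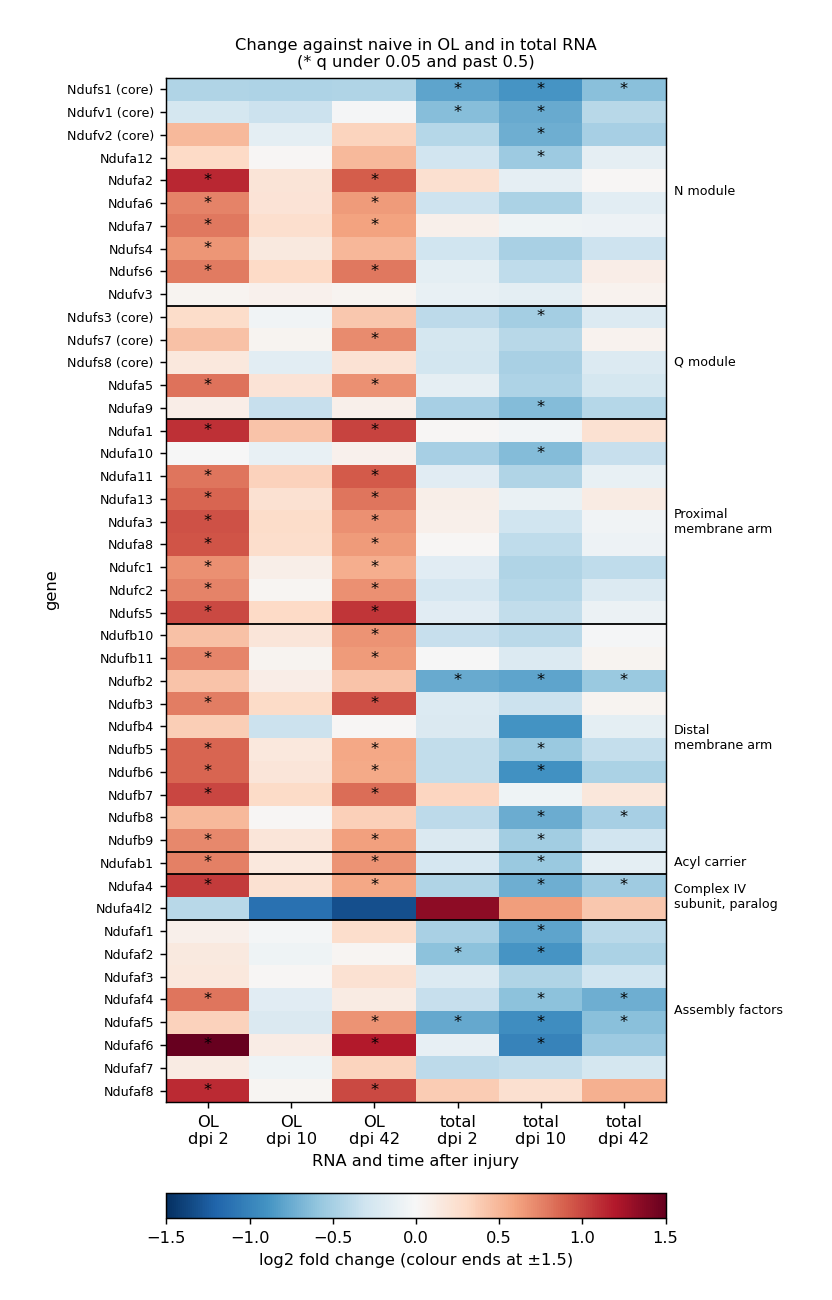
Log2 fold change against naive of members (rows, grouped by module) in OL and total RNA at each time (columns), from blue (lower) to red (higher), with an asterisk where q was under 0.05 and the change was past 0.5. The OL columns of dpi 2 and dpi 42 are mostly red with 21 and 22 subunits called up, while the total RNA column of dpi 10 is mostly blue with 13 called down.

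Ndufa3, a small subunit of the proximal membrane arm, had the smallest p of the subunits rising on dpi 2, going from 62.1, 64.8 and 56.4 CPM in naive OL to 116, 119.7 and 120.0 (log2 fold change 0.95 ± 0.09 SE, q = 1.02e-07). Ndufa8, which faces the intermembrane space, rose from 57.2, 57.8 and 68.3 to 116, 119.7 and 118 CPM (log2 fold change 0.95 ± 0.11 SE, q = 4.96e-07). For Ndufa2, an N module subunit with a thioredoxin-like fold, the naive libraries had 40, 39.4 and 47 CPM and those of dpi 2 had 82.6, 104 and 90 (log2 fold change 1.13 ± 0.13 SE, q = 1.01e-06). In each of these genes the groups were well apart, with the lowest library of dpi 2 above the highest naive one. With an offset for transcript length and GC content, described below, the changes were -0.061 for Ndufa3, 0.11 for Ndufa8 and 0.14 for Ndufa2, and none of them was called. The levels of Ndufs1 and Ndufv1, both core subunits, were lower instead and are given below. Leaving out dpi 2 pool 2 gave 22 subunits called up, and leaving out naive pool 3, also an alternative added after seeing the data, gave 23. Without the 5 OL libraries rich in astrocyte markers 21 were called up, with a median of 0.62, and Ndufs1 was called down.

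On dpi 10 the subunits were near their naive level in OL. The edgeR quasi-likelihood test called 0 of 36 in either direction, where 8.55% of all genes were called up and 5.55% down. At an unadjusted p under 0.05, 9 were higher and 3 lower, and the DESeq2 Wald test called 0. The count was also 0 without naive pool 3 and without the OL libraries rich in astrocyte markers. Their median log2 fold change was 0.15 (range -0.46 to 0.43). Ndufs6, a zinc-binding subunit of the N module, showed the size of these differences with 45.9, 48.5 and 44.8 CPM in naive OL and 57.7, 53.8 and 59.8 on dpi 10 (log2 fold change 0.30 ± 0.09 SE, q = 0.0284), which do not overlap but differ by less than 0.5 on the log2 scale.

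On dpi 42, 22 of 36 subunits (61.1%) rose in OL, against 13.7% of all genes, with a median of 0.61 and 34 above 0. Apart from the acyl carrier Ndufab1, a single gene that was also called, the proximal arm again had the largest share with 8 of 9. It was followed by the distal arm with 7 of 10, the N module with 4 of 10 and the Q module with 2 of 6. Ndufs6 had the smallest p, with 75, 82.5 and 83.3 CPM in the dpi 42 libraries (log2 fold change 0.79 ± 0.09 SE, q = 2.49e-06), all above its naive and dpi 10 values. Ndufb3, a distal arm subunit, went from 55.8, 49.8 and 54 CPM in naive OL to 116, 109 and 86 (log2 fold change 0.96 ± 0.12 SE, q = 3.9e-06). Ndufa3 reached 101, 107 and 87.9 CPM (log2 fold change 0.69 ± 0.09 SE, q = 1.21e-05). The third dpi 42 library was the lowest of its group in both Ndufb3 and Ndufa3 but still above every naive one. With the length and GC offset the change on dpi 42 was -0.16 for Ndufs6, 0.39 for Ndufb3 and -0.20 for Ndufa3. The call on Ndufb5, another distal arm subunit, rests on groups that overlap, with 41.9, 40.8 and 48.5 CPM in naive OL and 76.3, 73.8 and 45.5 on dpi 42 (log2 fold change 0.58 ± 0.15 SE, q = 0.00555). Leaving out naive pool 3 gave 24 subunits called up. Without the OL libraries rich in astrocyte markers 15 were called up and Ndufs1 down, with a median of 0.46.

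Comparing the injured groups with each other in OL, 11 of 36 subunits (30.6%) were higher on dpi 42 than on dpi 10, against 1.97% of all genes, with a median difference of 0.45 and 35 above 0. Ndufa2 was 1 of them, at 47.3, 49.7 and 47.4 CPM on dpi 10 and 91.8, 82.5 and 62.5 on dpi 42 (log2 fold change 0.71 ± 0.13 SE, q = 0.0042). Without OL replicate 3 of dpi 42, the library with the lowest subunit mean of its group, 21 subunits were called, and with only these 2 groups in the fit 1 was. The length and GC offset left 1 subunit called. Without the OL libraries rich in astrocyte markers 0 were called and the median difference was 0.25. Between dpi 42 and dpi 2, 0 subunits were called by edgeR, against 7.12% of all genes up and 6.43% down. At an unadjusted p under 0.05, 2 were higher on dpi 42 and 2 lower, the DESeq2 Wald test called 0, and the median difference was -0.07. Without the OL libraries rich in astrocyte markers 2 were called lower on dpi 42.

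**Figure D3:**
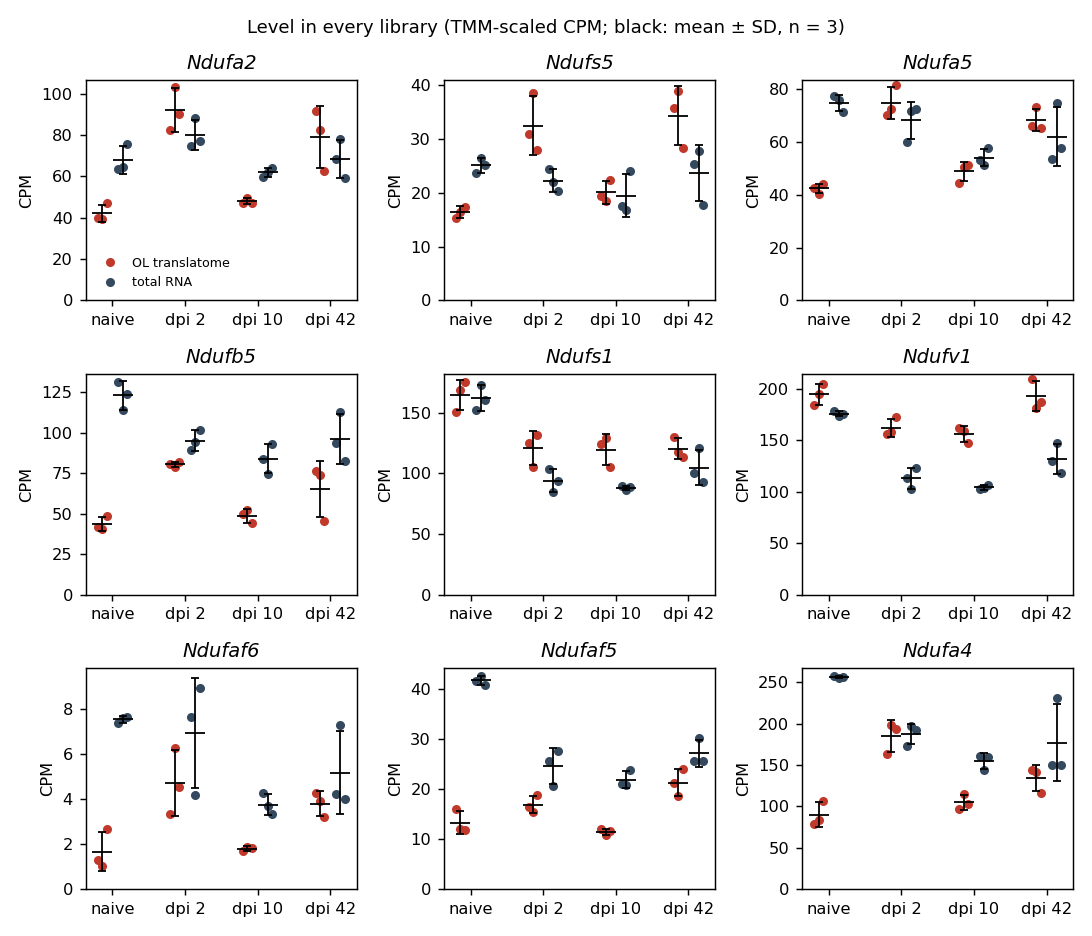
Level of 9 members in each library (points; red, OL; blue, total RNA; TMM-scaled CPM on linear axes from 0) by group, with the mean and SD of n = 3 in black. Ndufa2, Ndufs5, Ndufa5 and Ndufb5 have higher means in OL on dpi 2 and dpi 42 than in naive OL. The Ndufb5 points of dpi 42 overlap with naive. In contrast, Ndufs1 is lower than naive at every time in both kinds of RNA.

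The 7 core subunits, which bind the flavin and the iron-sulfur clusters, lay below the accessory ones in OL. Their median log2 fold change in OL was 0.22, -0.14 and 0.22 over the 3 times, as compared to 0.75, 0.18 and 0.64 for the 29 accessory subunits. Of all 3 times only Ndufs7 on dpi 42 was called among them. Ndufs7, which carries the last iron-sulfur cluster before ubiquinone, had 93.2, 95.1 and 101 CPM in naive OL, 126, 131 and 134 on dpi 2, 94.1, 98.4 and 105 on dpi 10 and finally 171, 156 and 146 by dpi 42. Its libraries of dpi 2 and dpi 42 lay above the naive ones, and the change was log2 fold change 0.71 ± 0.11 SE, q = 2.84e-05 on dpi 42 and below the threshold of 0.5 on dpi 2 (log2 fold change 0.44 ± 0.10 SE, q = 0.00225). The direction turned with the length and GC offset, to -0.39 on dpi 2 and -0.11 on dpi 42.

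Ndufs1, the largest core subunit and a carrier of several iron-sulfur clusters, had 151, 169 and 175 CPM in naive OL, 125, 105 and 132 on dpi 2, 124, 129 and 106 on dpi 10 and finally 130.3, 117 and 114 by dpi 42. Every injured library was below every naive one, and the log2 fold changes of -0.45, -0.46 and -0.45 had q = 0.00311, 0.00614 and 0.00368 but did not reach 0.5 in size. Ndufv1, the subunit that binds NADH and the flavin, had 184, 195 and 205 CPM in naive OL and 156, 158 and 172 on dpi 2 (log2 fold change -0.26 ± 0.09 SE, q = 0.0227). It was also lower on dpi 10 (log2 fold change -0.32 ± 0.09 SE, q = 0.0154), short of 0.5 both times, and overlapped with naive on dpi 42 (log2 fold change -0.01 ± 0.09 SE, q = 0.989). Neither difference kept a q under 0.05 without naive pool 3, nor did that of dpi 2 without dpi 2 pool 2. Its partner Ndufv2 differed in sign on dpi 2, with 97.4, 104 and 101 CPM in naive OL and 132, 142 and 150.3 on dpi 2 (log2 fold change 0.49 ± 0.11 SE, q = 0.00105), again below the threshold. Ndufs3 of the Q module had log2 fold changes of 0.28, -0.05 and 0.41 over the 3 times, and Ndufs8, another iron-sulfur protein, had 0.16, -0.16 and 0.22. Neither gene passed the test at any time in OL. Ndufv3, an accessory subunit of the N module, had 0.04, 0.06 and 0.04 and did not pass the test either.

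The difference between core and accessory subunits went with transcript length. The median length of the transcript chosen for each gene was 1623 bases for core and 763 for accessory subunits, 1308.5 for the assembly factors and 2867 over all tested genes. Across the 36 subunits, length and OL change had a Spearman rho of -0.68, -0.68 and -0.65 over the 3 times, and across 17154 genes -0.31, -0.26 and -0.36 (genes share their libraries and are not independent replicates). Genes of 500 to 1000 bases with a mean over 1 CPM (640 genes) had a median OL change of 0.83, 0.28 and 0.72 over the 3 times, and 61.3%, 19.2% and 57.2% of them were called up. The 19 subunits of that length had medians of 0.78, 0.20 and 0.68, and 15, 0 and 17 of them were called up. In OL the subunits thus moved about as far as other genes with transcripts as short. The plot of OL change against length shows the subunits along the line of all genes.

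**Figure D4:**
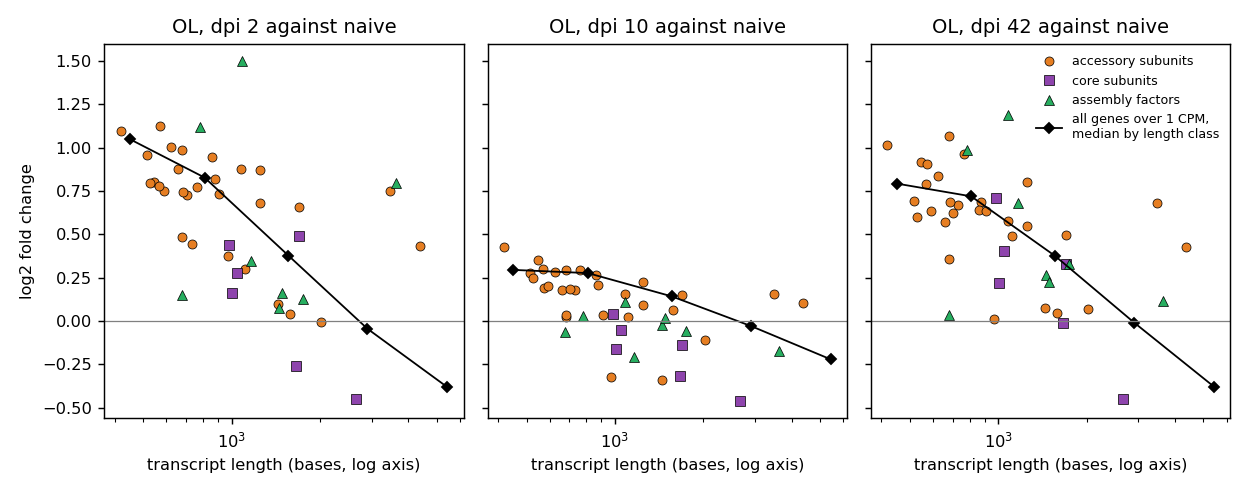
Log2 fold change in OL against naive of members (points: orange, accessory subunits; purple, core subunits; green, assembly factors) by transcript length in bases on a log axis, at each time. The black line gives the median of all genes over 1 CPM in 5 length classes, which falls from 1.05 to -0.38 on dpi 2, and most accessory subunits lie near it.

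When an offset for transcript length and GC content was fitted to each library, 2 subunits were called up and 2 down in OL on dpi 2 and 2 up and 4 down on dpi 42, with medians of -0.17 and -0.15, and on dpi 10 the median was -0.23. The calls up were on Ndufb2 and Ndufab1, whose chosen transcripts of 4371 and 3479 bases are the longest of the subunits, and those down on dpi 2 were on Ndufv1 and Ndufs8. Transcript length thus moved with the result in OL, while GC content had a rho of -0.02, 0.15 and 0.12 with the OL change of the subunits over the 3 times. The part of length in the result, by the library preparation or by the RNA itself, was not tested. Core subunits stayed below accessory ones with the offset, at medians of -0.42, -0.40 and -0.30 over the 3 times against -0.05, -0.17 and -0.13.

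In total RNA the subunits were lower on dpi 10, and on the other days the count depended more on the processing. On dpi 10, 13 of 36 (36.1%) fell, against 13.3% of all genes, the median was -0.47 against -0.10 over all genes, and all 36 were below 0. Those called were Ndufs1, Ndufv1, Ndufv2 and Ndufa12 of the N module, Ndufs3 and Ndufa9 of the Q module, Ndufa10 of the proximal arm, Ndufb2, Ndufb5, Ndufb6, Ndufb8 and Ndufb9 of the distal arm, and Ndufab1. This count moved with the processing from 6 with library sizes alone to 28 with the length and GC offset, and the direction held. In total RNA genes of 500 to 1000 bases had a median of 0.04 on dpi 10 while the 19 subunits of that length had -0.41.

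On dpi 2, 3 subunits (8.33%) fell, against 17% of all genes, with a median of -0.25 against -0.10 over all genes. On dpi 42 it was 3 (8.33%) against 7.76%, with medians of -0.15 and -0.08. With the length and GC offset the counts were 31 and 15, at medians of -0.70 and -0.49. The smallest p on dpi 2 and dpi 10 belonged to Ndufv1 and Ndufs1. Ndufv1 had 178, 173 and 176 CPM in naive total RNA, 113, 103 and 123 on dpi 2 (log2 fold change -0.64 ± 0.09 SE, q = 7.89e-06) and 102, 104 and 106 on dpi 10 (log2 fold change -0.76 ± 0.09 SE, q = 1.6e-06). On dpi 42 it was at 130.02, 147 and 118 CPM, below all naive libraries but short of the threshold (log2 fold change -0.42 ± 0.09 SE, q = 0.0016). Ndufs1 went from 152, 173 and 160.3 CPM to 103, 84.4 and 93.7 on dpi 2 (log2 fold change -0.79 ± 0.11 SE, q = 1.14e-05), 89.5, 85.9 and 88.6 on dpi 10 (log2 fold change -0.88 ± 0.11 SE, q = 4.73e-06) and 100.1, 121 and 92.9 on dpi 42 (log2 fold change -0.63 ± 0.11 SE, q = 0.000343). Groups did not overlap in either gene at any time. The third subunit called on dpi 2 was Ndufb2, and on dpi 42 Ndufb2 and Ndufb8 were called beside Ndufs1.

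Counts in total RNA rested in part on single libraries. On dpi 2 the number called became 5 without naive total RNA replicate 1 or without dpi 2 replicate 3, 4 without dpi 2 pool 2 and 3 without naive pool 3. On dpi 10 it was 15 without naive pool 3, and on dpi 42 it was 2. The count on dpi 42 became 1 without total RNA replicate 1 or 3 of that group and 8 without replicate 2, the library whose labels conflict, when the median became -0.26. Neurons are rich in mitochondria, and the sum of 6 neuron markers in total RNA was 7792 to 8237 CPM in naive mice, 3431 to 4375 on dpi 2, 3453 to 3931 on dpi 10 and 4227 to 6437 on dpi 42, with 5, 6 and 4 of 6 called down. The part of neurons in the lower complex I level was not tested.

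Differential OL enrichment, the difference between the change in OL and that in total RNA of the same tissue, asks whether the 2 kinds of RNA moved apart. It was above 0 for 36 of 36 subunits on dpi 2 and dpi 10 and for 35 on dpi 42. On dpi 2, 28 subunits (77.8%) were called, against 7.57% of all genes, on dpi 10 15 (41.7%) against 4.27%, and on dpi 42 27 (75%) against 4.12%. The medians were 0.88, 0.57 and 0.73, against 0.06, 0.08 and 0.04 over all genes. All 3 times share the naive samples. A value above 0 can come from a rise in OL, a fall in total RNA or both. On dpi 10 the mean log2 CPM of the subunits was 5.83 in OL, against 5.75 in naive OL. In total RNA it was 5.90 against 6.37, so the difference at that time lay mostly on the side of total RNA.

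Ndufa6, an N module subunit that holds an acyl carrier protein, had 54.2, 62.7 and 55.3 CPM in naive OL and 88.8, 101 and 98.7 on dpi 2, while its total RNA went from 108, 104 and 107 to 83.5, 84.3 and 90.4 CPM (log2 fold change 1.05 ± 0.14 SE, q = 2.96e-05 for the difference). The 2 kinds of RNA moved in opposite directions without overlap between groups, and by dpi 2 the OL level had reached that of total RNA. Ndufs6 had the smallest p on dpi 10 (log2 fold change 0.68 ± 0.13 SE, q = 0.00243) and the third smallest on dpi 2 (log2 fold change 0.93 ± 0.13 SE, q = 6.78e-05). Ndufa5, a Q module subunit, led the subunits on dpi 42 with 42.7, 40.5 and 44.2 CPM in naive OL and 66.2, 73.2 and 65.6 on dpi 42, against 77.4, 75.9 and 71.4 and 53.7, 74.9 and 57.8 in total RNA (log2 fold change 0.96 ± 0.16 SE, q = 0.000973). Its OL groups were apart and its total RNA groups overlapped. Of the 7 core subunits 3, 1 and 3 were called over the 3 times, with Ndufv2 among them each time (log2 fold change 0.91 ± 0.15 SE, q = 0.00038 on dpi 2), and of the 29 accessory ones 25, 14 and 24.

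For this comparison the rho with transcript length on dpi 2 was -0.35 over the subunits and -0.09 over all genes. Over all genes of 500 to 1000 bases the median differential enrichment was 0.47, 0.18 and 0.53 over the 3 times, with 26.2%, 9.22% and 22.5% called up, while the 19 subunits in that class had medians of 0.93, 0.62 and 0.79 with 18, 10 and 18 called. With the length and GC offset 18, 16 and 6 of 36 subunits were called, at medians of 0.50, 0.55 and 0.33. Scaling to a total RNA library as the reference moved the median of all genes to -0.17, -0.15 and -0.18 and left 22, 1 and 15 calls, while the subunits kept medians of 0.63, 0.33 and 0.48. Without naive pool 3 the counts were 31, 11 and 29, without dpi 2 pool 2 the count on dpi 2 was 28, and without total RNA replicate 2 of dpi 10 the count at that time was 9. Without the OL libraries rich in astrocyte markers the counts were 27, 12 and 6 at medians of 0.64, 0.48 and 0.49, while the medians of all genes moved to -0.14, 0.00 and -0.10. No core subunit was then called on dpi 10 or dpi 42, and none on dpi 10 without naive pool 3.

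In naive mice the subunits were lower in OL than in total RNA. Here 20 of 36 (55.6%) were called lower, against 28.6% of all genes, with a median of -0.57 against -0.27. They were nearly all accessory subunits, 18 of 29 against Ndufv2 and Ndufs3 of the 7 core ones, and the medians were -0.69 and -0.04. Ndufb2 of the distal arm had 17.8, 15.5 and 22.4 CPM in naive OL and 66.5, 62.4 and 59.7 in naive total RNA (log2 fold change -1.76 ± 0.18 SE, q = 2.54e-08). Ndufs1 (log2 fold change 0.03 ± 0.11 SE, q = 0.886) and Ndufv1 (log2 fold change 0.15 ± 0.09 SE, q = 0.171) had about the same level in both, and with library sizes alone, which moves the median of all genes to -0.78, their signs turned and 32 subunits were called. Without naive pool 3 the count was 22, and without the OL libraries rich in astrocyte markers it was 17.

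Within naive OL, levels per length (CPM per kilobase of the chosen transcript) spanned a wide range among members. Among core subunits the values were 117 ± 6.14 (SD, n = 3) for Ndufv1, followed by Ndufs7 (98.0 ± 4.06), Ndufs8 (70.1 ± 10.8), Ndufs1 (61.9 ± 4.69), Ndufv2 (59.3 ± 1.96) and Ndufs3 (49.9 ± 11.8). Neighbours from Ndufs8 to Ndufs3 in that order lie within each other's spread. Of the accessory subunits Ndufb8 was the highest at 142 ± 8.68 and Ndufb4 the lowest at 1.58 ± 0.657. The value of Ndufb4 is uncertain, since the gene had only 1582 counts over all libraries. Whether reads shared with near-identical copies of the gene affected its count was not tested. The assembly factors ranged from 1.53 ± 0.801 for Ndufaf6 to 42.8 ± 6.16 for Ndufaf2, which overlaps with the range of the accessory subunits.

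The assembly factors followed the subunits in OL with fewer calls. Their mean log2 CPM was 3.6, 3.41 and 3.66 in naive OL, 4.07, 4.12 and 4.07 by dpi 2, 3.46, 3.54 and 3.55 by dpi 10, and 4.18, 4.01 and 3.89 by dpi 42. All libraries of dpi 2 and dpi 42 were above the naive ones and those of dpi 10 overlapped with them. On dpi 2, 3 of 8 (37.5%) rose, against 15.9% of all genes, with a list median of 0.25, and on dpi 42 3 of 8 rose, against 13.7%, with a median of 0.30. The medians rested in part on single libraries, becoming 0.38 on dpi 2 without naive OL replicate 1 and 0.51 on dpi 42 without OL replicate 3 of that group. These counts were also 3 and 3 without naive pool 3. On dpi 2 the count was 3 as well without dpi 2 pool 2 and without the OL libraries rich in astrocyte markers. The length and GC offset is not among these settings. With it Ndufaf5 lost its call on dpi 42, and the changes of Ndufaf2 on dpi 2 and dpi 42 turned negative. On dpi 10 edgeR called 0, 0 had an unadjusted p under 0.05, DESeq2 called 0, and the median was -0.04. The subunits' median exceeded that of the assembly factors by 0.47, 0.19 and 0.31 over the 3 times, a difference given without a test, and by 0.022, 0.0071 and -0.25 with the length and GC offset.

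Ndufaf6, which is needed for early assembly steps and was the factor with the lowest level, had 1.3, 1.02 and 2.64 CPM in naive OL, 3.33, 6.24 and 4.51 on dpi 2 (log2 fold change 1.5 ± 0.38 SE, q = 0.00314) and 4.26, 3.88 and 3.17 on dpi 42 (log2 fold change 1.19 ± 0.38 SE, q = 0.0185). Both injured groups lay above naive, although naive replicate 3 was close to them. Ndufaf8, the partner of Ndufaf5, rose from 6.85, 6.39 and 7.96 to 12.6, 16.6 and 16.8 CPM on dpi 2 (log2 fold change 1.12 ± 0.24 SE, q = 0.000759) and 16.6, 11.9 and 13.5 on dpi 42 (log2 fold change 0.99 ± 0.24 SE, q = 0.00292), again without overlap. Ndufaf4, which with Ndufaf3 helps to build the Q module, was called on dpi 2 alone, with 9.03, 8.21 and 11.7 CPM in naive OL and 15.9, 18.6 and 15.7 on dpi 2 (log2 fold change 0.80 ± 0.17 SE, q = 0.000628). By dpi 42 it was at 12.8, 10.1 and 8.45 CPM, overlapping with naive (log2 fold change 0.12 ± 0.17 SE, q = 0.659), and the fall from dpi 2 to dpi 42 passed the test (log2 fold change -0.68 ± 0.17 SE, q = 0.00668).

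Ndufaf5, which hydroxylates an arginine of Ndufs7, had 16, 12 and 11.8 CPM in naive OL, 16.4, 15.4 and 18.7 on dpi 2 and 21.1, 18.6 and 24 on dpi 42. The dpi 42 libraries were above all naive ones and passed the test (log2 fold change 0.68 ± 0.15 SE, q = 0.0012), and those of dpi 2 overlapped with naive (log2 fold change 0.34 ± 0.15 SE, q = 0.0702). The dpi 42 call was lost with the length and GC offset. The other factors did not pass in OL at any time. Over dpi 2, 10 and 42 the log2 fold changes were 0.07, -0.02 and 0.26 for Ndufaf1, which works at the membrane arm, 0.15, -0.07 and 0.03 for Ndufaf2, a paralog of Ndufa12, 0.16, 0.01 and 0.22 for Ndufaf3, and 0.13, -0.06 and 0.33 for Ndufaf7, a methyltransferase. Between dpi 10 and dpi 42 Ndufaf5 (log2 fold change 0.89 ± 0.15 SE, q = 0.00254) and Ndufaf8 (log2 fold change 0.96 ± 0.24 SE, q = 0.0196) rose.

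Total RNA showed lower levels of most factors. On dpi 10, 5 of 8 (62.5%) fell, against 13.3% of all genes, with a median of -0.70, namely Ndufaf1, Ndufaf2, Ndufaf4, Ndufaf5 and Ndufaf6. On dpi 2 Ndufaf2 (log2 fold change -0.61 ± 0.15 SE, q = 0.00296) and Ndufaf5 fell (25% against 17% of all genes), and on dpi 42 Ndufaf4 (log2 fold change -0.73 ± 0.16 SE, q = 0.00256) and Ndufaf5 (25% against 7.76%). Ndufaf5 was thus called at each time, from 41.6, 42.5 and 40.8 CPM in naive total RNA to 25.6, 20.5 and 27.5 on dpi 2 (log2 fold change -0.76 ± 0.15 SE, q = 0.000249), 21, 20.7 and 23.7 on dpi 10 (log2 fold change -0.93 ± 0.15 SE, q = 4.21e-05) and 25.5, 30.1 and 25.6 on dpi 42 (log2 fold change -0.62 ± 0.14 SE, q = 0.00343), with no overlap with naive. On dpi 42 its OL and total RNA changes went opposite ways and it had the smallest p of all members for differential OL enrichment (log2 fold change 1.30 ± 0.21 SE, q = 0.000627). This enrichment was called for Ndufaf2, Ndufaf4, Ndufaf5 and Ndufaf6 on dpi 2, for Ndufaf2 and Ndufaf5 on dpi 10 and for Ndufaf4, Ndufaf5 and Ndufaf6 on dpi 42, which is 50%, 25% and 37.5% of the factors against 7.57%, 4.27% and 4.12% of all genes. Without naive pool 3 the calls of Ndufaf2 on dpi 2, of Ndufaf2 and Ndufaf5 on dpi 10 and of Ndufaf6 in total RNA on dpi 10 were lost, and without dpi 2 pool 2 that of Ndufaf6 on dpi 2. Without the OL libraries rich in astrocyte markers the enrichment lost its call for Ndufaf2 on dpi 2, for both factors on dpi 10 and for Ndufaf4 and Ndufaf6 on dpi 42. In naive mice Ndufaf5 (log2 fold change -1.65 ± 0.15 SE, q = 4.27e-09), Ndufaf4 (log2 fold change -1.60 ± 0.17 SE, q = 4.36e-08), Ndufaf6 (log2 fold change -2.18 ± 0.38 SE, q = 4.51e-05) and Ndufaf1 (log2 fold change -0.78 ± 0.25 SE, q = 0.0103) were lower in OL than in total RNA.

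The promoters of members that rose at different times are shown for the motif of NRF1, a transcription factor known for binding genes of the respiratory chain. RefSeq start sites on GRCm38.p6 gave 42 windows (250 bases before to 50 after the start) for 40 of the 46 members. The NRF1 palindrome, 10 bases long and shown in capitals in the windows printed here, was present in 3 windows (7.14%), those of Ndufa11, Ndufaf4 and Ndufaf5, against 0.971% of 32851 windows of that length. The looser form, which allows any base in place of the middle T, was searched on both strands and includes the former. It was in 10 windows (23.8%) of 9 members, against 4.6%. Windows with it belonged to Ndufa5, Ndufa6, Ndufa8, Ndufa11, Ndufb4, Ndufs5, Ndufs6, Ndufaf4 and Ndufaf5. CCGGAAG, an ETS type motif, was in 14.3% of windows against 8.86%, and AAGGTCA, of the type bound by ERR receptors, in 7.14% against 4.72%. In the 3 windows below, all on the plus strand, capitals mark the palindrome, at chr17:56717512-56717811 for Ndufa11, chr4:24897833-24898132 for Ndufaf4 and chr2:140170396-140170695 for Ndufaf5.
Ndufa11: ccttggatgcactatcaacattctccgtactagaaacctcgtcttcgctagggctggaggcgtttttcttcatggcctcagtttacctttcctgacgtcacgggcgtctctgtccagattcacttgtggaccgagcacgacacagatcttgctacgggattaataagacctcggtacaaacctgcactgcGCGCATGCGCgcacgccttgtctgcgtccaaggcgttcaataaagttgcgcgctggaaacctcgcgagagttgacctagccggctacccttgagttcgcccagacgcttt
Ndufaf4: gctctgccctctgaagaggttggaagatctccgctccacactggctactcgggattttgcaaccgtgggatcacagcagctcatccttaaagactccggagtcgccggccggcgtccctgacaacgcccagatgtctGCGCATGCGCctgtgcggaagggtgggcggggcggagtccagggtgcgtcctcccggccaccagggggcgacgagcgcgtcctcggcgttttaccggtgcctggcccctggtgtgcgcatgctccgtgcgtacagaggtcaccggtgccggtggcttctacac
Ndufaf5: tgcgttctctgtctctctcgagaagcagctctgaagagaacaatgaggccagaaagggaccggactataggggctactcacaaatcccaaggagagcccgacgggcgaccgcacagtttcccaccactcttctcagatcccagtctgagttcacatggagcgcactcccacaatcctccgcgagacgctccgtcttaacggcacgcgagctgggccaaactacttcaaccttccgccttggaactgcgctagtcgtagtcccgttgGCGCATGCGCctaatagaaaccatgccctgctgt
The match starts at base 191, 138 and 267 of the window, so that of Ndufaf5 lies past the start site. With the same letters in their windows, Ndufa11 of the proximal arm was called up in OL at both dpi 2 (log2 fold change 0.80 ± 0.13 SE, q = 4.59e-05) and dpi 42 (log2 fold change 0.91 ± 0.13 SE, q = 1.85e-05), Ndufaf4 on dpi 2 alone and Ndufaf5 on dpi 42 alone. The calls on Ndufa11 and that on Ndufaf5 were lost with the length and GC offset. A match describes the sequence and was not tied to binding here.

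Ndufa4, the complex IV subunit, had 78.6, 83 and 107 CPM in naive OL, 163, 199 and 193 by dpi 2 and 143, 142 and 116 by dpi 42, all above naive (log2 fold change 1.05 ± 0.15 SE, q = 8.24e-06 and log2 fold change 0.58 ± 0.15 SE, q = 0.00413). The latter call was lost without the OL libraries rich in astrocyte markers and with the length and GC offset, which gave -0.045. In total RNA it had 258, 256 and 256 CPM in naive mice, 161, 144 and 159.6 on dpi 10 (log2 fold change -0.73 ± 0.15 SE, q = 0.000558) and 149.7, 231 and 150.1 on dpi 42 (log2 fold change -0.54 ± 0.15 SE, q = 0.0104), all below naive. Its differential OL enrichment passed the test at each time (log2 fold change 1.5 ± 0.21 SE, q = 5.33e-05 on dpi 2, log2 fold change 0.95 ± 0.21 SE, q = 0.00627 on dpi 10 and log2 fold change 1.12 ± 0.21 SE, q = 0.00201 on dpi 42). Ndufa4l2, known as a target of hypoxia signalling, had only 1852 counts over all libraries and passed no test against naive, with 0.210 to 2.75 CPM in naive OL, 1.32 to 4.22 in naive total RNA and 3.08 to 10.7 in total RNA on dpi 2 (log2 fold change 1.34 ± 0.99 SE, q = 0.31).

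Further assembly factors that do not carry the Ndufaf name were read beside the members. Of 12 tested, 3 (25%) rose in OL on dpi 2, against 15.9% of all genes, namely Dmac1 (log2 fold change 1.21 ± 0.18 SE, q = 1.54e-05), Tmem126a (0.82 ± 0.24 SE, q = 0.00905) and Timmdc1 (0.77 ± 0.14 SE, q = 0.000176), which take part in building the membrane arm. On dpi 42, 1 (8.33%) rose, Dmac1 (0.72 ± 0.18 SE, q = 0.00354), a share below the 13.7% of all genes. In total RNA 3 (25%) fell on dpi 2, against 17% of all genes, and 3 on dpi 10, against 13.3%. Acad9 and Ecsit, which act with Ndufaf1, were called both times (-0.57 ± 0.12 SE, q = 0.000463 and -0.54 ± 0.13 SE, q = 0.00167 on dpi 2), Dmac2 on dpi 2 and Tmem70 on dpi 10.

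The medians of the other complexes of the chain were also higher in OL on dpi 2 and dpi 42 than on dpi 10. On dpi 2 and dpi 42, where 15.9% and 13.7% of all genes were called up, 2 and 1 of 4 complex II subunits rose, 5 and 5 of 9 of complex III, 10 and 10 of 10 of complex IV, and 10 and 6 of 16 of complex V, while Sdha, the flavin subunit of complex II, fell on dpi 2. In that order their medians were 0.44, 1.05, 0.98 and 0.68 on dpi 2, 0.06, 0.07, 0.20 and 0.04 on dpi 10 and then 0.41, 0.72, 0.79 and 0.40 by dpi 42, against 0.73, 0.15 and 0.61 for complex I, and no difference between complexes was tested. Among all genes of 500 to 1000 bases 61.3% and 57.2% were called up in OL on dpi 2 and dpi 42, at medians of 0.83 and 0.72. The part of transcript length in the rise of these other complexes was not tested, and no offset values are given for them. In total RNA on dpi 10 the medians of complexes II to V were -0.31, -0.45, -0.48 and -0.46, against -0.47 for complex I.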

How the data were processed

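Counts of 24 libraries (n = 3 pools for each of 8 groups) were used. The authors aligned reads to mm10 with STAR after FastQC 0.10.1, counted them on genes with HTSeq 0.10.0 and deposited these raw read counts in a single table. The strand setting and the annotation release are not given in the sources used here. Groups came from the labels, except that column names were followed for the 2 dpi 42 libraries with conflicting labels.

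Tests used edgeR 4.0.16 in R 4.3.3 (TMM scaling, quasi-likelihood test, 1 mean per group, no pool term). The 17167 genes with a summed count of at least 10 were tested. Each of 12 comparisons was adjusted over them by the Benjamini-Hochberg method. A gene was called at q under 0.05 and a log2 fold change past 0.5. Standard errors (SE) are the log2 fold change divided by the root of the test's F value, and CPM are scaled with TMM factors. Length and GC content are those of 1 transcript per gene (GENCODE M21, GRCm38), available for all 46 members and 17154 tested genes. The offset is a smooth (mgcv 1.9.3) of each library's deviation from the gene means. Alternatives included DESeq2 1.42.0, other scalings and filters, blocks, left-out libraries and fits of the compared groups alone. The fit was tested on simulated data.

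Members, lists and thresholds were chosen with earlier results of these data known. Some genes are not reported here. Values are printed for the core subunits, the assembly factors, Ndufa4, Ndufa4l2, the accessory subunits highest and lowest per length, and the called members of smallest p in each comparison (3 in either direction, 2 in total RNA). Ndufa2, Ndufb5 and Ndufs6 where outside that rule, and Ndufa11, whose promoter is shown, were added after their values were seen.

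OL and total RNA of the same pool are paired by design. Their deviations from the group means over genes had r of 0.04 to 0.14 in naive mice, 0.09 to 0.11 on dpi 2, 0.02 to 0.06 on dpi 10 and -0.01 to 0.02 on dpi 42.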

Additional observations from a re-analysis of the deposited data

Results flagged for a closer look

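Subunits of complex I moved differently in OL and in total RNA after SCI, by a test of that difference in edgeR's quasi-likelihood model. The difference was above 0 for 36, 36 and 35 of 36 subunits over the 3 times and was called for 28, 15 and 27 of them, against 7.57%, 4.27% and 4.12% of all genes, and values are in the text above. On dpi 10 it lay mostly in a lower level in total RNA, with OL near naive. Leaving out each library in turn gave 21 to 31, 9 to 18 and 21 to 30 calls. With the length and GC offset the counts were 18, 16 and 6, without the OL libraries rich in astrocyte markers 27, 12 and 6, and with a total RNA library as reference 22, 1 and 15.

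Ndufa4 and Ndufaf5 went in opposite directions in OL and in total RNA on dpi 42. For Ndufa4 the difference was 1.12 on the log2 scale, with all OL libraries above and all total RNA libraries below naive. The same held for Ndufaf5, with a difference of 1.30. With the length and GC offset the OL changes were -0.045 for Ndufa4 and 0.22 for Ndufaf5 and neither was called, and the differences were 0.68 and 1.03. The OL call on Ndufa4 was also lost without the OL libraries rich in astrocyte markers.

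Outside the comparisons, Y-linked genes had 2604 counts in total RNA and 2414 in OL of dpi 2 pool 2, while the other 22 libraries had 0 to 13 (median 0). The mice are described as female. Where these counts come from was not tested.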

How the results depend on the processing

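Of the counts of called subunits and differences of medians, 136 values under other settings stayed within 1.5 times or 1 SD of those reported and 34 did not. With the length and GC offset, subunits called up in OL were 2 on dpi 2 and 2 on dpi 42, those called down in total RNA were 31, 28 and 15 over the 3 times, those with differential OL enrichment were 18 on dpi 2 and 6 on dpi 42, and 1 was higher in OL on dpi 42 than on dpi 10. The median of subunits minus that of assembly factors in OL became 0.022, 0.0071 and -0.25. Called down in total RNA on dpi 10 were 8 with DESeq2 size factors, 8 by the DESeq2 Wald test, 6 with library sizes alone, 6 with a total RNA library as TMM reference and 7 with only the groups compared in the fit, and on dpi 42 the last 3 settings gave 1 each. For differential OL enrichment the total RNA reference gave 1 call by dpi 10 and 15 by dpi 42. Library sizes alone gave 1 subunit up in OL on dpi 10 and 32 down in naive OL. With only the groups compared, 1 subunit was higher in OL on dpi 42 than on dpi 10. Without the 5 OL libraries rich in astrocyte markers, 6 subunits had differential OL enrichment on dpi 42, 0 were higher in OL on dpi 42 than on dpi 10, and 2 were lower than on dpi 2. Apart from the offset, which lowers short transcripts in injured OL and in injured total RNA by its construction, the cause of these shifts was not tested.

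Leaving out each library in turn gave 21 to 23, 0 and 20 to 26 subunits up in OL over the 3 times, 3 to 5, 9 to 17 and 1 to 8 down in total RNA, 21 to 31, 9 to 18 and 21 to 30 with differential OL enrichment, 18 to 22 lower in naive OL, 8 to 21 higher on dpi 42 than on dpi 10 and 0 against dpi 2. The difference of medians between subunits and assembly factors ranged from 0.29 to 0.54 on dpi 2, 0.11 to 0.23 on dpi 10 and 0.18 to 0.34 on dpi 42. Its lowest values came without naive OL replicate 1 on dpi 2 and dpi 10 and without dpi 42 OL replicate 3.

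A block by tissue pool gave 28, 18 and 27 subunits with differential OL enrichment and 20 lower in naive OL. Together with the offset it gave 16 on dpi 2 and 9 on dpi 42. Replicate numbers across times mark no shared tissue, and same-numbered libraries had r of -0.14 to 0.25. A block by number, run without dpi 42 since its numbers are accession order, gave 21 up in OL on dpi 2, 0 on dpi 10, and 3 and 13 down in total RNA. With the offset too it gave 2 up in OL on dpi 2, 30 and 26 down in total RNA on dpi 2 and dpi 10, and differences of medians of 0.032 on dpi 2 and 0.035 on dpi 10. No paired analysis was possible for comparisons with dpi 42 by number.

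For single genes, leaving out each library in turn changed the sign of 27 of 173 values at least once, with 42 changes in all, and 0 of these passed q under 0.05. Other settings changed the sign of 47 values, with 103 changes in all, 22 of them in values that passed q under 0.05 as reported or under that setting, and these are given here. With the offset the log2 fold change in OL on dpi 2 was -0.061 for Ndufa3, -0.45 for Ndufs3, -0.39 for Ndufs7, -0.60 for Ndufs8 and -0.69 for Ndufaf2. On dpi 10 it was -0.40 for Ndufs7. On dpi 42 it was -0.20 for Ndufa3, -0.16 for Ndufs6, -0.11 for Ndufs7, -0.53 for Ndufs8, -0.64 for Ndufaf2 and -0.045 for Ndufa4, and in total RNA -0.35 for Ndufs7. Block and offset together gave on dpi 2 -0.054 for Ndufa3, -0.44 for Ndufs3, -0.38 for Ndufs7, -0.60 for Ndufs8, -0.68 for Ndufaf2 and -0.37 for Ndufaf3, and on dpi 10 -0.39 for Ndufs7. With library sizes alone the naive difference was -0.48 for Ndufs1 and -0.36 for Ndufv1. Of other values for named genes under these settings, 1799 kept their side of q under 0.05, 134 lost and 56 gained a call. Genes of low count, such as Ndufaf6, Ndufb4 and Ndufa4l2, have the largest errors.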
